A study of Mus musculus with 4 samples.

Results

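Genes of the NODAL and BMP signalling pathways were examined in mouse embryonic stem cells (ESCs) depleted of Cnot1, the scaffold subunit of the CCR4-NOT deadenylase complex. The genes were the 10 rows of the count table named Nodal, Bmp4, Lefty1, Lefty2, Tdgf1, Id1, Id2, Id3, Smad6 and Smad7, out of 50559 genes listed. All 10 had enough reads to be among the 18144 genes tested. E14 ESCs, a pluripotent line of blastocyst origin, were grown on gelatin with serum replacement and leukemia inhibitory factor, and both groups shared this medium. Cells were transfected with a non-targeting siRNA (siNT, 2 libraries) or with an siRNA against Cnot1 (siCnot1, 2 libraries) at 150 nM and collected after 48 h, and poly(A)+ RNA was sequenced. The study describes its ESCs as carrying a tdTomato transgene under the MERVL promoter and lists more than one siRNA against Cnot1, and which siRNA entered these libraries is not given in the sources used here. The total number of reads counted on genes was between 32135824 and 32557440 per library. Cnot1 itself had 28397 and 30903 reads in the siNT libraries and 6188 and 6425 in the siCnot1 libraries, in the direction of the labels (log2 fold change -2.33, adjusted p = 2.37e-18 in edgeR). Levels are given as normalized CPM, read counts scaled to library size with edgeR's TMM factors. Adjusted p values are Benjamini-Hochberg values over all genes tested, with 0.05 as the threshold. Gene positions are those listed with the counts, which differ from GRCm38, and the notes of the submitters name only mm10.

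NODAL and BMP4 are secreted ligands of the TGF-β superfamily. NODAL binds activin receptors together with the co-receptor CRIPTO, encoded by Tdgf1, and acts through SMAD2 and SMAD3, and the secreted LEFTY proteins block it as feedback inhibitors. BMP4 acts through SMAD1 and SMAD5, whose direct targets include the Id genes, and the inhibitory SMADs encoded by Smad6 and Smad7 are induced by the pathway and restrain it. In mouse ESCs, BMP-induced ID proteins act with leukemia inhibitory factor to sustain self-renewal, and the NODAL branch is active in an autocrine manner.

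After Cnot1 depletion, 2 of the 10 genes rose (Nodal and Lefty1), 7 fell (Bmp4, Lefty2, Tdgf1, Id1, Id3, Smad6 and Smad7) and Id2 did not pass the test. Among all genes tested, 15% were higher and 14.7% were lower at the same threshold, 29.7% in all. With any 1 library left out, each of the 10 genes kept its direction. Of the genes called, all but Nodal, Tdgf1 and Id1 lost the call in at least 1 of these fits. Such a fit leaves 1 library in 1 group, and fewer of all genes were called in each of them as well. The median log2 fold change of the 10 genes was -0.42, against 0.0084 for all genes tested. For each of the 10 genes the libraries of the 2 groups did not overlap, with 2 genes higher and 8 lower. Among all genes tested 63.9% did not overlap, 32.7% higher and 31.2% lower. The study set its threshold at a p of 0.05 without adjustment together with a log2 change of 1 in either direction. There only Id1 among the 10 was called, as lower, where 1.8% of all genes were lower and 6.18% higher. Scaling by library totals in place of TMM moved the median of all genes to 0.12, and under it the directions of the 10 genes were as given and Id3 no longer passed. In these bulk libraries a smaller number of cells expressing a gene and a lower level per cell cannot be told apart.

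**Figure D1:**
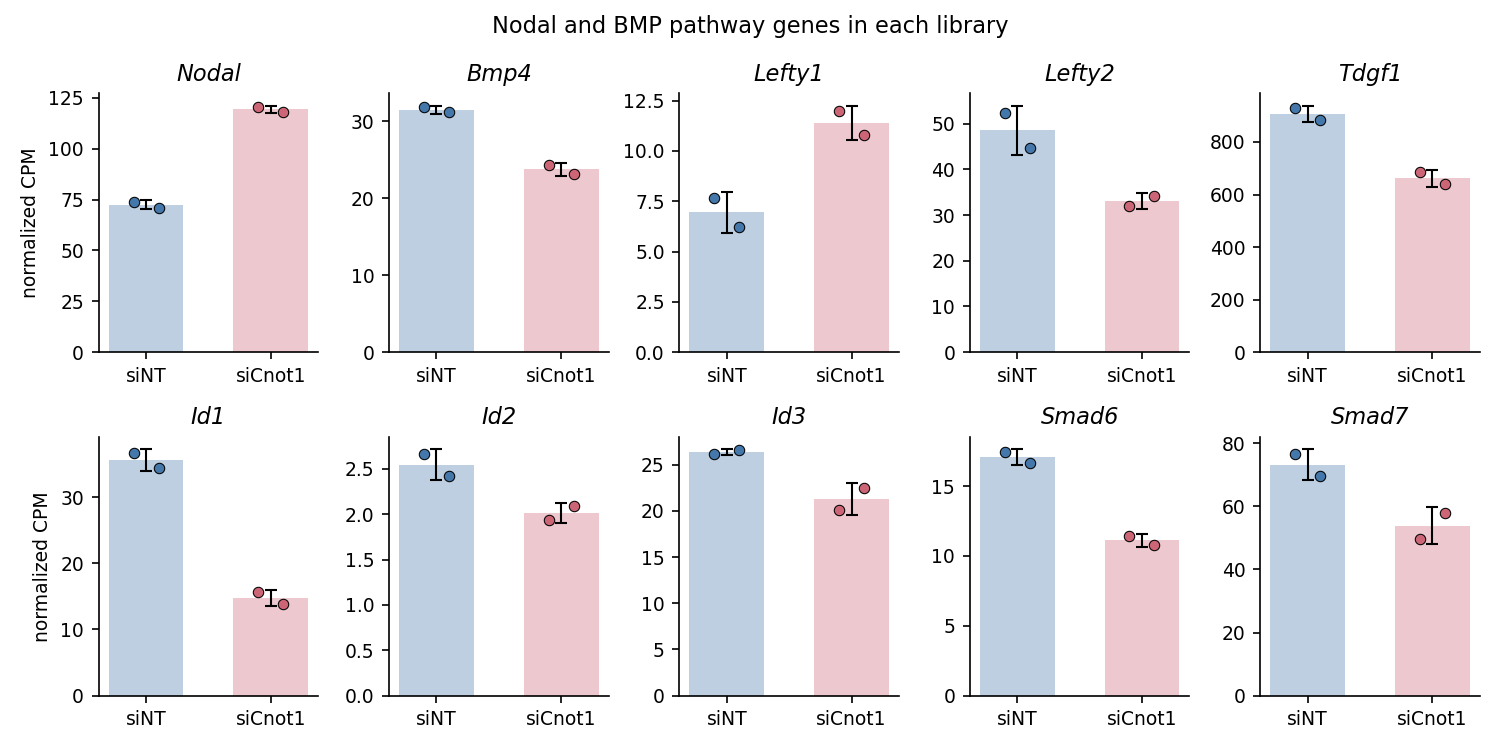
Normalized CPM (vertical axes, each starting at 0) of the 10 genes in the siNT and siCnot1 libraries. Points are libraries, bars are means and error bars are SD (n = 2). Nodal and Lefty1 lie higher in both siCnot1 libraries, and the other 8 genes lie lower.

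Nodal (chromosome 10, 61253751 to 61261117), which encodes the ligand, had 74.0 and 71.0 normalized CPM in the siNT libraries and 121 and 118 in the siCnot1 libraries. Both siCnot1 libraries lay above both siNT libraries, and the means were 72.5 ± 2.10 and 119 ± 1.67 (SD, n = 2 per group). The rise was 1.65-fold (log2 fold change 0.72, SE 0.0645, adjusted p = 1.82e-08 from edgeR). It passed under every alternative that was run, with the log2 fold change between 0.69 and 0.83.

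Bmp4 (chromosome 14, 46620982 to 46628126, minus strand), the BMP ligand of the group, moved the other way. It had 31.8 and 31.1 normalized CPM in siNT and 24.3 and 23.2 in siCnot1. The groups did not overlap, and Bmp4 fell to 75.5% of the control mean (log2 fold change -0.41, SE 0.0982, adjusted p = 0.00286 from edgeR). Each group was tight, but the call was lost without siNT replicate 1 (adjusted p = 0.0753 from edgeR), without siNT replicate 2 (0.0541) and without siCnot1 replicate 2 (0.066). A gene on the opposite strand, Gm15217, shares 84 exon bases with Bmp4 and had 2 to 5 reads per library. Within each library, the ratio of Bmp4 to Nodal per base of transcript does not depend on scaling. This ratio took values of 0.438 and 0.446 with siNT and of 0.205 and 0.199 with siCnot1 (two-sided exact permutation p = 0.333, the smallest that 2 libraries against 2 allow).

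The pair of LEFTY genes lies side by side on chromosome 1 and encodes closely related inhibitors of NODAL. Lefty1 (180762587 to 180765966) had 239 and 195 reads in siNT and 402 and 361 in siCnot1, or 7.68 and 6.22 against 12.0 and 10.8 normalized CPM. It rose 1.64-fold (log2 fold change 0.71, SE 0.157, adjusted p = 0.00125 from edgeR). The call was lost without siNT replicate 2 (log2 fold change 0.57, adjusted p = 0.0836 from edgeR) and without siCnot1 replicate 1 (0.63, adjusted p = 0.0561). Lefty2 (180720673 to 180726672) had the opposite direction, with 52.3 and 44.8 normalized CPM in siNT and 31.9 and 34.3 in siCnot1. It fell to 68.1% of the control mean (log2 fold change -0.55, SE 0.0945, adjusted p = 9.61e-05 from edgeR), and without siNT replicate 1 the adjusted p was 0.0535 with a log2 fold change of -0.44.

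Because the genes are close copies, reads could have been split between them. Their coding sequences, each of 1107 bases, were 91.9% identical, and the longest run of identical bases in the GENCODE M21 transcripts was 140 bases. Of the 75-base windows of the Lefty1 transcript, 11.2% also occur in Lefty2, so most of either transcript can be told apart at the 150-base read length. Lefty1 reads per Lefty2 read came to 0.147 and 0.139 with siNT and to 0.376 and 0.314 with siCnot1, and the groups did not overlap (exact permutation p = 0.333, the smallest possible). Summed over both genes, siNT had 1869 and 1600 reads and siCnot1 had 1472 and 1509, which gave a log2 fold change of -0.32 (SE 0.0886, adjusted p = 0.00809 from edgeR). With library totals the sum did not pass (-0.21, adjusted p = 0.0728 from edgeR), nor did it pass when genes with low counts were kept (-0.33, adjusted p = 0.0945), or without siNT replicate 1 (-0.20, adjusted p = 0.179), siCnot1 replicate 1 (-0.30, 0.133) or siCnot1 replicate 2 (-0.34, 0.0977). Lefty1 and Nodal both rose, and the ratio of Nodal to Lefty1 per base, 7.46 and 8.84 with siNT, was 7.78 and 8.49 with siCnot1, so that the groups overlapped. Lefty1 shares 84 exon bases with Gm39715 on the opposite strand, which had 1 to 21 reads per library.

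Both LEFTY transcripts carry, in the 3′ UTR, a site complementary to the seed of the miR-290 and miR-302 families. MicroRNAs recruit CCR4-NOT to their targets, and the levels of these microRNAs were not measured here. The sites are shown because both genes carry them, and whether they bear on the changes of either gene was not tested. Below, the 8 bases in capitals contain both 7-base forms of the site that were searched (AGCACTT and GCACTTA), on the transcript strand, and the seed of each microRNA (bases 2 to 8) is in capitals.
Lefty1 3′ UTR (GRCm38 chr1:180938213-180938220, plus strand): actgtatgcgaAGCACTTAcatgta
Lefty2 3′ UTR (GRCm38 chr1:180897917-180897924, plus strand): cacccagtttaAGCACTTAcatggg
mmu-miR-294-3p (RefSeq, GRCm38.p6 chr7:3220691-3220712, plus strand): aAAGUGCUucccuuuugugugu
mmu-miR-302b-3p (RefSeq, GRCm38.p6 chr3:127545275-127545297, plus strand): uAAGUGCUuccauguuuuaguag
The coordinates of the sites cover the capitals. The 8-base run AGCACTTA was present in the longest annotated 3′ UTR of 477 of 13953 tested genes with such a UTR (3.42%), and among the 10 genes in Lefty1 and Lefty2 alone. A match of letters describes the sequence and is not a measured site of binding.

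Tdgf1 (chromosome 9, 110768676 to 110775226, minus strand), which encodes the NODAL co-receptor CRIPTO, was by far the most abundant of the 10 genes. It had 928 and 885 normalized CPM in siNT and 685 and 639 in siCnot1. The groups were clearly apart, and the level fell to 73.1% of the control mean (log2 fold change -0.45, SE 0.055, adjusted p = 1.37e-06 from edgeR). The fall passed under every alternative, between -0.51 and -0.35. Reads were also listed on Tdgf1-ps1, a processed pseudogene that resembles the Tdgf1 mRNA, at 9.23% to 9.92% of the Tdgf1 reads in each library. Tdgf1-ps1 fell together with Tdgf1 (log2 fold change -0.53, SE 0.0716, adjusted p = 5.34e-06 from edgeR), and whether its reads came from Tdgf1 was not tested. With both genes summed, a step added after the data were seen, the log2 fold change was -0.46 (adjusted p = 1.11e-06 from edgeR). The number of Tdgf1 transcripts per Nodal transcript, as reads per base, was 12.6 and 12.5 with siNT against 5.71 and 5.44 with siCnot1 (exact permutation p = 0.333, the smallest possible).

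**Figure D2:**
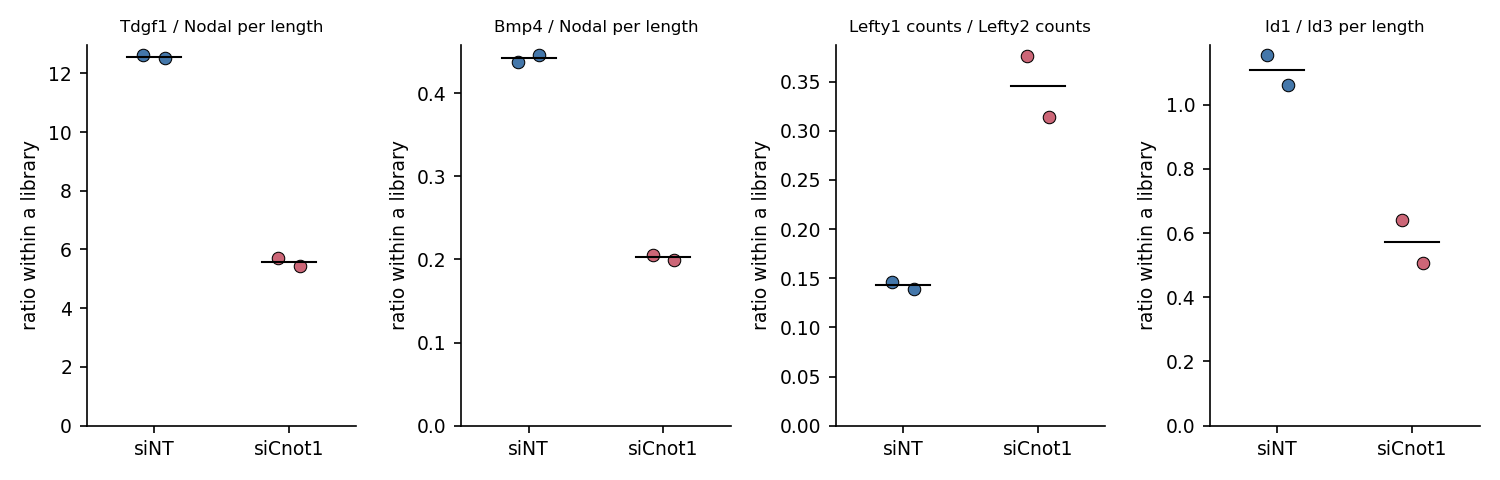
Ratios between pairs of the 10 genes within each library (vertical axes start at 0), which do not depend on the scaling of libraries. Points are libraries and lines are means of 2 libraries. Tdgf1 to Nodal, Bmp4 to Nodal and Id1 to Id3 are lower in both siCnot1 libraries, and Lefty1 to Lefty2 is higher.

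ID proteins are helix-loop-helix factors that lack a DNA-binding region and hold basic helix-loop-helix factors inactive. Id1 (chromosome 2, 152578171 to 152579330) changed most among the 10 genes. It had 1144 and 1079 reads in siNT and 525 and 464 in siCnot1, or 36.7 and 34.4 against 15.7 and 13.9 normalized CPM. Id1 fell to 41.5% of the control mean (log2 fold change -1.27, SE 0.106, adjusted p = 7.12e-09 from edgeR), and 1.38% of all genes tested had a lower log2 fold change. The fall passed under every alternative, with values from -1.36 to -1.16.

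Id3 (chromosome 4, 135871133 to 135872703) had 26.1 and 26.6 normalized CPM in siNT and 20.1 and 22.5 in siCnot1. Its fall was small (log2 fold change -0.31, SE 0.104, adjusted p = 0.0276 from edgeR) and did not pass with library totals (adjusted p = 0.15), without the filter on low counts (0.103), in DESeq2 (0.0534), or when any 1 of the 4 libraries was left out (0.0631 to 0.271). Id2 (chromosome 12, 25143798 to 25146091, minus strand) had 83 and 76 reads in siNT and 65 and 70 in siCnot1. Its log2 fold change was -0.34 (SE 0.285, adjusted p = 0.414 from edgeR), close to that of Id3 with a larger SE. The amount of Id1 per Id3, as reads per base, was 1.15 and 1.06 with siNT against 0.641 and 0.506 with siCnot1 (exact permutation p = 0.333, the smallest possible). Id1 thus went from 51.8% and 49.9% of the summed Id1, Id2 and Id3 reads per base in siNT to 37.4% and 32.1% in siCnot1. The 3 coding sequences were 46.9% to 53.7% identical and shared no 75-base window, so reads of this length separate them.

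Both inhibitory SMAD genes fell. Smad6 (chromosome 9, 63860358 to 63929374, minus strand), which acts mainly against BMP receptors, had 17.5 and 16.7 normalized CPM in siNT and 11.5 and 10.8 in siCnot1. It fell to 65.1% of the control mean (log2 fold change -0.62, SE 0.124, adjusted p = 0.000504 from edgeR), and without siNT replicate 1 the adjusted p was 0.0582 at a log2 fold change of -0.59. Smad7 (chromosome 18, 75500436 to 75529006), which inhibits both branches, had 76.6 and 69.6 in siNT and 49.6 and 58.0 in siCnot1. It fell to 73.5% of the control mean (log2 fold change -0.44, SE 0.0831, adjusted p = 0.000262 from edgeR). Smad7 shares 1401 of its 4442 exon bases with Gm41776 on the opposite strand, which had 0 reads in every library, and the strand setting of the counting is not given in the sources used here. The siCnot1 libraries of Smad7 lay further apart than those of Smad6, and the call was lost without siNT replicate 1 (adjusted p = 0.101) and without siCnot1 replicate 1 (0.0517).

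**Figure D3:**
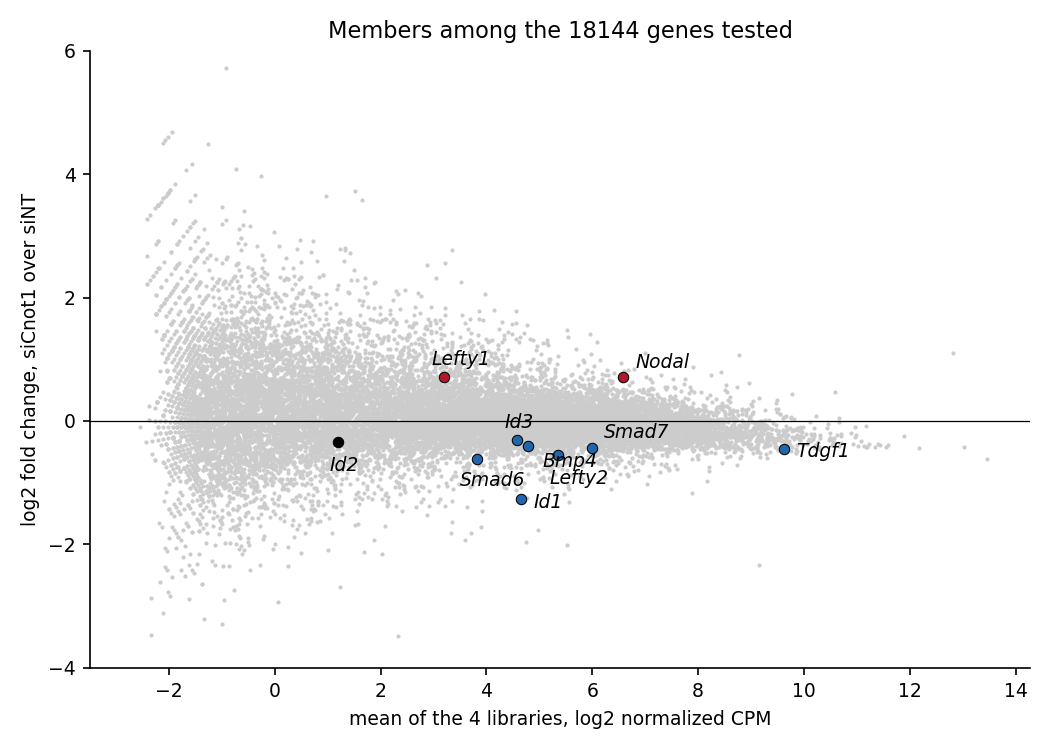
Log2 fold change of siCnot1 over siNT (vertical axis) against the mean level over the 4 libraries in log2 normalized CPM (horizontal axis) for the 18144 genes tested (grey). The 10 genes are marked, red where higher, blue where lower and black where not called. Id1, at -1.27, is the lowest of the 10, and the rest lie between -0.62 and 0.72.

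Levels can be compared between genes only per base of transcript, so reads were divided by the listed exon length (FPKM). In siNT the order ran from Tdgf1 (435 ± 14.9 FPKM) through Nodal (34.6 ± 1.00), Id1 (30.7 ± 1.43), Id3 (27.7 ± 0.328), Lefty2 (19.6 ± 2.16), Smad7 (16.5 ± 1.11), Bmp4 (15.3 ± 0.246), Smad6 (5.68 ± 0.188) and Lefty1 (4.28 ± 0.637) to Id2 (2.00 ± 0.135; SD, n = 2 for each). No neighbours in this order overlapped between libraries. In siCnot1 Tdgf1 (318 ± 15.6 FPKM) and Nodal (57.0 ± 0.795) again led, and Id3 came next at 22.3 ± 1.79. Lefty2, Id1, Smad7 and Bmp4 followed at 13.4 to 11.5 FPKM, each overlapping with the next, so that their order is not resolved. Lefty1 (7.02 ± 0.529) then stood above Smad6 (3.70 ± 0.159), the reverse of their order in siNT, and Id2 was lowest at 1.58 ± 0.0841 (SD, n = 2 for each).

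**Figure D4:**
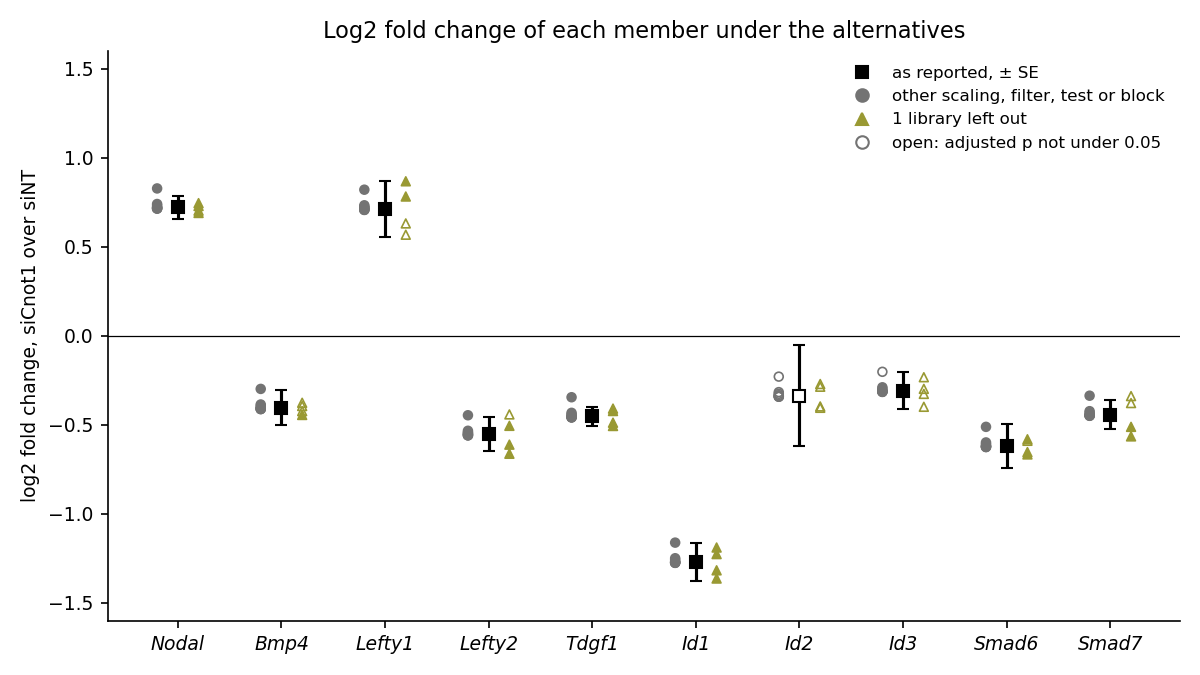
Log2 fold change of siCnot1 over siNT (vertical axis) for each of the 10 genes. Black squares give the reported value with its SE, grey circles the 8 other scalings, filters, tests and the replicate block, and triangles the 4 fits that leave out 1 library. Open symbols did not reach an adjusted p under 0.05, and no symbol changes sign.

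The rest of the pathway was described with 63 further genes in 8 lists, of which 49 had enough reads to be tested. Of these 49, 13 rose and 8 fell (26.5% and 16.3%, against 15% and 14.7% of all genes tested), with a median log2 fold change of 0.13. Without the filter on low counts, 3 of the further genes rose and 4 fell, where 4.3% and 4.78% of all genes tested did. DESeq2 called 6 as higher and 7 as lower, against 11.6% and 12.9% of all genes. With library totals 18 rose and 4 fell, against 22% and 8.64% of all genes. The genes named by rule are, in each list, up to 3 with the largest changes among those that passed and did not overlap between groups.

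On the NODAL and activin side, 1 of 5 tested ligand and processing genes rose and 1 fell, against 15% and 14.7% of all genes tested. Furin, a convertase that cleaves ligand precursors, had 24.1 and 21.7 normalized CPM in siNT and 30.8 and 27.7 in siCnot1 (log2 fold change 0.36, adjusted p = 0.0118 from edgeR). Without the filter on low counts Furin did not pass. With 1 library left out, its log2 fold change ranged from 0.27 to 0.43. Inhbb, the subunit of activin B, had 134 and 125 in siNT and 104 and 106 in siCnot1 (-0.30, adjusted p = 0.000838 from edgeR). Among 7 tested receptors, SMADs and cofactors, the type II receptor gene Acvr2a was higher by 0.32 (adjusted p = 0.0379), and Smad2 and the common mediator Smad4 were lower by small amounts (log2 fold changes -0.20 and -0.17, adjusted p = 0.0148 and 0.0371 from edgeR). Smad2 and Smad4 did not pass with library totals, nor did Acvr2a in DESeq2. Of 8 tested NODAL and activin targets, the corepressor gene Tgif1 fell from 183 and 186 normalized CPM to 144 and 143 (log2 fold change -0.36, adjusted p = 4.7e-05 from edgeR), and Skil, which encodes the SMAD corepressor SnoN, was higher by 0.19 (adjusted p = 0.0456), a call that DESeq2 and limma-voom did not make. The mesendoderm target Eomes had 559 and 561 reads in siNT and 728 and 590 in siCnot1 and did not pass (adjusted p = 0.431 from edgeR), and T and Cer1 had no reads in any library.

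On the BMP side, 2 of 4 tested ligand genes other than Bmp4 rose and none fell, against 15% and 14.7% of all genes tested. Bmp4, which is among the 10 genes and fell, had 15.3 FPKM in siNT, against 0.872 for Bmp7 and 0.283 for Bmp6. Bmp7 had 113 and 87 reads in siNT and 346 and 208 in siCnot1 (log2 fold change 1.37, SE 0.228, adjusted p = 7.43e-05 from edgeR), and Bmp6 had 17 and 36 against 82 and 51 reads (1.22, SE 0.407, adjusted p = 0.0253). The libraries of each group differed widely from each other for both genes. Bmp7 did not pass without siNT replicate 1 (log2 fold change 1.57, adjusted p = 0.0685 from edgeR) or without siNT replicate 2 (1.18, 0.0892). Bmp6 did not pass in DESeq2 or with any 1 library left out, with log2 fold changes from 0.78 without siNT replicate 1 to 1.85 without siNT replicate 2. Among 7 BMP receptor and SMAD genes, 3 rose and 1 fell. Acvr1, a type I receptor gene, rose from 9.63 and 11.9 normalized CPM to 19.9 and 17.0 (log2 fold change 0.78, adjusted p = 0.000104 from edgeR), and Bmpr1b, a rare type I receptor transcript here, from 20 and 40 reads to 96 and 75 (1.41, adjusted p = 0.00467). Acvr1 and Bmpr1b did not pass without siNT replicate 1 (0.62 and 0.99, adjusted p = 0.0702 and 0.139 from edgeR), nor did Bmpr1b without siCnot1 replicate 1 (1.22, 0.112). Smad5, a BMP effector, fell from 61.7 and 66.3 to 50.6 and 52.2 normalized CPM (-0.32, adjusted p = 0.00352 from edgeR). With 1 library left out, the log2 fold change of Smad5 ranged from -0.37 to -0.26.

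Of 6 further BMP targets tested, 2 fell and 1 rose, where 14.7% of all genes tested were lower and 15% higher. Id4, the remaining Id gene, had 235 and 208 reads in siNT and 161 and 159 in siCnot1 (log2 fold change -0.57, adjusted p = 0.0214 from edgeR), a call not made in DESeq2 or with library totals. Dusp9, a MAP kinase phosphatase gene that responds to BMP4 in ESCs, fell from 216 and 201 normalized CPM to 165 and 164 (-0.34, adjusted p = 0.00012 from edgeR). Bambi, which encodes a decoy receptor induced by BMP, was higher by 0.40 (adjusted p = 0.0238 from edgeR). That call was not made in DESeq2 or without the filter on low counts. With 1 library left out, the log2 fold change of Bambi ranged from 0.31 to 0.48. Among 6 tested antagonists, 4 rose and none fell, against the same shares of 15% and 14.7%. The 3 antagonists named by rule had few reads. Chrd, the BMP antagonist chordin, had 94 and 98 reads in siNT and 169 and 156 in siCnot1 (log2 fold change 0.66, adjusted p = 0.0275 from edgeR). Nbl1 had 38 and 17 against 66 and 64 reads (1.14, adjusted p = 0.0334), and Fstl3, which binds activin, had 8 and 3 against 35 and 17 reads (2.12, adjusted p = 0.0245). None of these 3 passed in DESeq2, without the filter on low counts, or with any 1 library left out. The log2 fold change of Nbl1 was 1.83 without siNT replicate 1 and 0.67 without siNT replicate 2, and that of Fstl3 was 2.97 without siNT replicate 1 and 1.503 without siCnot1 replicate 1. Twsg1, a BMP-binding modulator of the antagonist list, had 2295 and 2369 reads in siNT and 3547 and 3487 in siCnot1. Its log2 fold change was 0.49 (adjusted p = 4.26e-06 from edgeR). Twsg1 and the type I receptor gene Bmpr1a (log2 fold change 0.24) made up the remaining calls. They are named after their values were seen, and their calls under the alternatives are not given. Of 6 ubiquitin ligases and repressors, Rnf111 was lower by a small amount (-0.20, adjusted p = 0.0332 from edgeR) and did not pass with library totals, and the other 5 did not pass. With all 4 libraries, 6 of the 19 genes named by rule passed under every alternative (Inhbb, Tgif1, Bmp7, Acvr1, Smad5 and Dusp9), and Tgif1 and Dusp9 also passed with any 1 library left out.

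**Figure D5:**
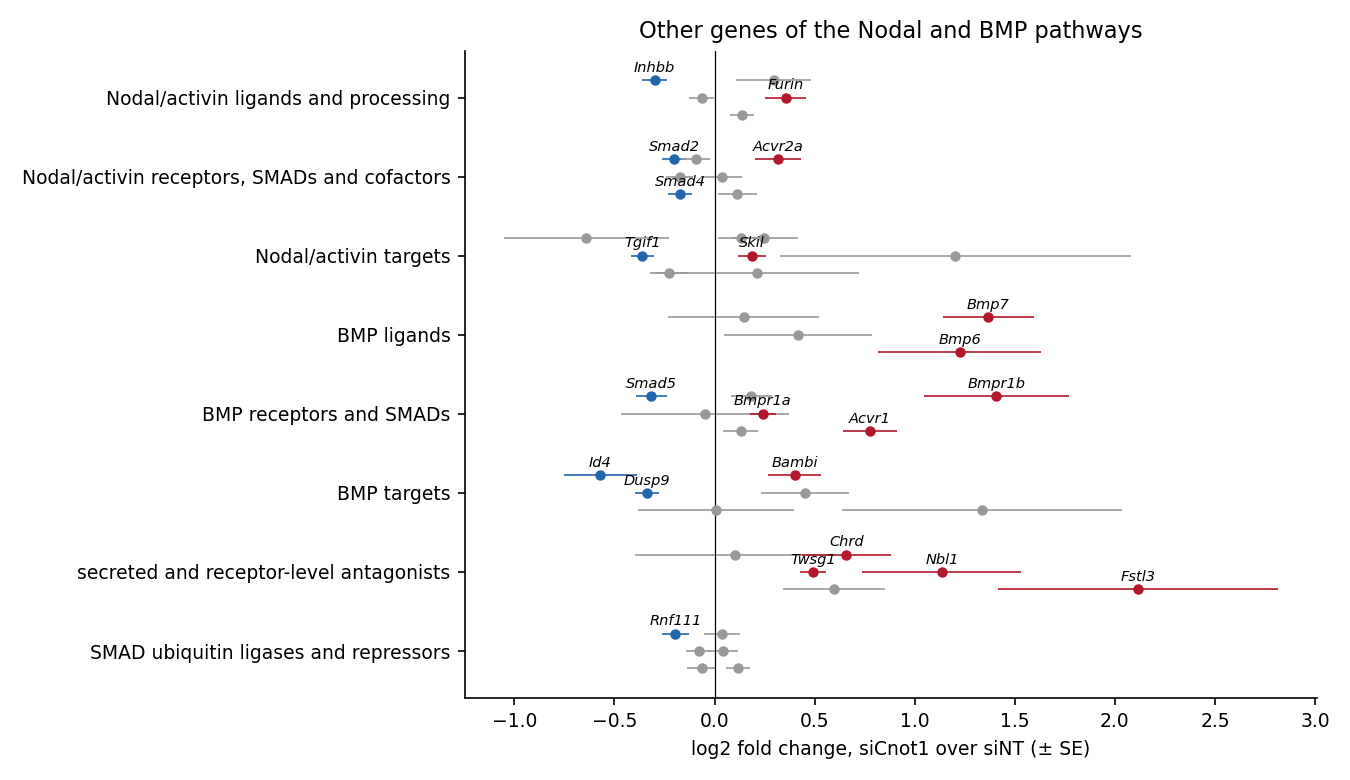
Log2 fold change of siCnot1 over siNT (horizontal axis, with SE) for the 49 tested genes of the 8 lists (rows). Red genes were higher and blue genes lower at an adjusted p under 0.05, and grey genes did not pass. The BMP ligand and antagonist rows, which leave out Bmp4 and the LEFTY genes, hold no lower gene, with values up to 2.12 for Fstl3. Among all genes tested, 14.7% were lower.

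Markers of the cells themselves moved in the same libraries, and the counts of markers called stand against 15% higher and 14.7% lower among all genes tested. The 6 pluripotency markers were all abundant (summed level 4466 and 4360 normalized CPM in siNT, 3757 and 3980 in siCnot1), and 4 of them were lower by small amounts (median log2 fold change of the 6, -0.18). Of 6 primitive endoderm markers, 2 rose (Pdgfra and Dab2), Gata6 and Sox7 had log2 fold changes of -0.11 and -0.10 without passing, and the summed level went from 12.6 to 14.8 normalized CPM in siNT to 22.1 to 22.9 in siCnot1. Of 5 tested trophectoderm markers, 2 fell (Krt8 and Krt18), and the sum went from 21.6 and 23.9 to 12.2 and 12.0, while Cdx2 and Elf5 had at most 20 reads in any library. Of 3 tested formative epiblast markers 2 fell (Otx2 and Dnmt3b), and the sum of the list went from 102 and 109 to 82.7 and 82.8. Of 3 tested mesendoderm markers none passed, the sum was 19.9 in each siNT library and 23.4 and 19.2 with siCnot1, and T was at 0. Of 3 tested fibroblast markers Col1a1 rose from 39 and 48 to 116 and 131 reads, with Col3a1 at 0 and a summed level of 8.93 and 12.2 normalized CPM before and 13.3 and 12.7 after depletion. Of 5 markers of 2-cell-like cells 3 rose, and their sum went from 43.0 and 45.2 to 116 and 123 normalized CPM. The part of these shifts in the changes of the pathway genes was not tested.

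The transcripts of the 10 genes were also searched for sequence elements that recruit deadenylation factors. The pentamer ATTTA, the core of the AU-rich element, was found in the 3′ UTR of 7 of the 10 genes, against 68.7% of tested genes with an annotated 3′ UTR. It was absent from Lefty1, Id1 and Id3, and Smad7 had the most, with 4. The Pumilio element TGTANATA was found in Nodal (2 sites), Id2 and Smad7 (1 each), against 25.5% of genes. All 10 had the m6A core motif GGAC, as did 84.6% of genes. The 3′ UTRs ran from 339 bases in Bmp4 to 1570 in Smad7, against a median of 1120 over the genes. These counts describe the transcript strand of 1 annotated transcript per gene. Promoter windows of 250 bases before to 50 after the start were given for 6 of the 10 genes (RefSeq, GRCm38.p6). On either strand, the SMAD-binding element CAGAC occurred in those of Id3 (2 sites) and Tdgf1 (1 site), against 49.6% of all windows, the GC-rich element GGCGCC in that of Id2 alone, against 11.9%, and the FOXH1 motif AATNCACA in none, against 3.6%.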

How the data were processed

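Poly(A)+ RNA of 4 samples (2 siNT, 2 siCnot1; independent biological replicates per the study's methods) was sequenced as 150-base pairs on a strand-marking library. The authors deposited raw read counts per gene with exon lengths, without normalization. The submitters' processing notes name fastp 0.19.4, HISAT2 2.2.1, DESeq2 1.40.2 and mm10. The counting program, its strand setting and its treatment of multiply mapped reads are not given in the sources used here. The listed positions are not those of GRCm38: of 48908 genes matched by symbol to RefSeq GRCm38.p6, 1067 had the same start and end, and none of the 10 members did.

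Counts were tested in R 4.3.3 with edgeR 4.0.16 (filterByExpr with a minimum count of 10, TMM, quasi-likelihood test, condition as the only term, 4 libraries, Benjamini-Hochberg adjustment over 18144 genes). SE was taken as the log2 fold change over the square root of F. The fits were tested on simulated data. A floor of 3 counts equals 0.0895 to 0.0963 normalized CPM in these libraries. Alternatives were other scalings and filters, DESeq2 1.42.0, limma 3.58.1 (voom), a replicate block and leaving out each library. Transcripts were those of GENCODE M21 (GRCm38), joined by gene name.

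The members, lists and tests were chosen with earlier results of these data known. Named genes were the 10 members, Cnot1 and, per list, up to 3 genes with the largest absolute log2 fold change among those that passed and did not overlap.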

Additional observations from a re-analysis of the deposited data

How the results depend on the processing

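No alternative reversed the direction of any of the 10 genes or of the 19 other named genes. With library totals in place of TMM, 3989 of all genes were higher and 1567 lower, 18 other pathway genes were higher and 4 lower, and the summed LEFTY genes had a log2 fold change of -0.21. This scaling raises every log2 fold change, and the share of higher genes among all calls went from 50.5% to 71.8%. With no filter on low counts, 1303 of all genes rose and 1450 fell, 3 other pathway genes were higher and 4 lower, and the LEFTY sum was at -0.33 (adjusted p = 0.0945 from edgeR). DESeq2 called 6 other pathway genes as higher, and 11.6% of all genes tested. Fstl3 did not pass a filter of 1 CPM in 2 libraries and has no value there. Leaving out 1 library, with the lone library of that group assumed to vary like the other group, gave 743 to 1444 genes higher and 871 to 1469 lower, 1 to 2 members higher and 2 to 5 lower, 1 to 4 other pathway genes higher and 2 to 3 lower, and a LEFTY sum of -0.43 to -0.20. Without siNT replicate 1, Id1 and Tdgf1 were the 2 members still called lower.

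The replicate numbers are shared by both groups, but libraries of the same number deviated from their group means with a correlation of only 0.011, so they were not taken as pairs. Under the replicate block 2524 of all genes rose and 2431 fell, the member counts were 2 and 7, the other pathway counts 11 and 6, and the LEFTY sum -0.32. It changed no call among the 10 genes and ended those of Acvr2a, Smad4, Skil and Rnf111. Over the 19 other named genes and 227 values under alternatives, 136 kept the call and 91 lost it. With 2 libraries per group, SEs were larger for genes with few reads, at 0.699 for Fstl3 and 0.285 for Id2 against 0.055 for Tdgf1.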

Other observations

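Of the 63 other pathway genes, 14 had too few reads to be tested, and their reads are given without a comparison. Gdf1, Inhba, Cfc1, T, Cer1 and Bmp5 had no reads in any library, so the activin A subunit and the second CRIPTO-family co-receptor were not detected at this depth. The BMP ligand gene Bmp2 had 0 and 0 reads in siNT and 9 and 6 in siCnot1. Bmper, which encodes a secreted BMP-binding protein, had 0 and 1 reads in siNT and 15 and 3 in siCnot1. Gdf6 had 4 reads in siCnot1 replicate 1 and none in the other libraries, and Foxa2 had 4 reads in siCnot1 replicate 2 and none elsewhere. Grem1 had 2 and 0 reads in siNT and 0 and 9 in siCnot1, and Msx1, a BMP target, had at most 4 reads in any library.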
